A study of Mus musculus with 8 samples.

Results

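Antisense lncRNAs are long non-coding RNAs whose gene lies over a protein-coding gene on the opposite DNA strand. In the testes of Iqch mutant and wild-type mice, 557 of the 17127 genes of the deposited expression table were such lncRNAs. They were chosen by position and by level: a GENCODE gene type of lncRNA, a place on an autosome, a gene body that overlaps the gene body of a protein-coding gene on the other strand, and a mean of at least 5 CPM, counts scaled to the total of the library, over the 4 wild-type libraries. The wild-type values that set this minimum also enter the comparison of mutant and wild type. Counts of lncRNAs and of their pairs by direction are therefore given here as a description. The coding genes had no minimum of their own, but only those in the table could be compared. Well-known nuclear and host-gene lncRNAs were left out of the rule by name, and 3 of these, Gas5, Snhg1 and Kcnq1ot1, would otherwise have been members. The table held 1892 autosomal lncRNAs, of which 1095 reached the minimum.

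The libraries were RNA-seq of whole adult testis from 4 wild-type mice and from 3 Iqch-/- mice (mutants 1, 2 and 4). Mutant 3 was not analysed here. The mutants were homozygous for short Cas9-made deletions in Iqch that shift its reading frame, on a mixed C57BL/6 and CBA background. Of the edited lines made, the study names its RNA-seq coverage after Iqch mu7, while the labels name no line. The mice were 4 months old, with 1 mouse per library. Iqch encodes a testis protein with an IQ motif, a short stretch that binds calmodulin.

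Many genes are transcribed from both strands. An antisense RNA can start beside the promoter of its neighbour and run away from it, run into its far end, or lie wholly inside an intron, and some antisense RNAs alter the transcription, splicing or stability of the sense RNA while many have no known effect. The adult testis, where chromatin opens widely in meiotic cells and round spermatids, expresses an unusually large set of lncRNAs.

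The 557 lncRNAs overlapped 705 coding genes in 720 pairs. Of these genes 607 were in the table, which left 620 pairs of 518 lncRNAs for comparison, and the partners of the other 39 lncRNAs were not analysed here. The pairs had 4 arrangements. In 290 of the 720 pairs the genes were head to head, with both starts inside or next to the overlap. In 214 pairs the lncRNA lay inside the coding gene, in 123 the genes ran tail to tail, and in 93 the coding gene lay inside the lncRNA gene. Exons overlapped in 541 pairs. In 165 pairs the overlap came from longer alternative transcripts, since the main (canonical) transcripts did not overlap, and in 91 pairs the lncRNA lay within 1 intron of the main coding transcript. The sources do not say whether the counting used strand. Without strand, reads of a lncRNA and of the coding gene across from it cannot be told apart where their exons overlap. Unspliced reads of a coding gene could then also be counted for a lncRNA in its intron. Every value below is thus the value of a gene as counted.

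Start regions showed how the arrangements differ in sequence. In the window from 250 bases before to 50 bases after the start of the main transcript, head-to-head lncRNAs had a median of 21 CG dinucleotides, the pair of bases that is dense in CpG-island promoters, against 4 for lncRNAs inside a coding gene and 14 for all genes of the table. At least 10 CG were found in 73.2% of 284 head-to-head windows, in 21.9% of 187 windows of lncRNAs inside a coding gene, in 73.8% of the windows of the overlapped coding genes and in 64.1% of all windows. The letters TATAAA, the core of the TATA box, stood on either strand in 4.58% of the head-to-head windows, 11.2% of the windows of inside lncRNAs and 9.58% of all. The cAMP response element TGACGTCA, a site used by the testis activator CREM, was found on either strand in 18 of the 557 windows, or 3.23%, against 2.80% of all windows. CCAAT stood on either strand in 31.4% of the members' windows and in 38.5% of all. These motifs do not overlap each other in letters, and a match describes the letters only.

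The sequences below are GRCm39 and are shown for the pairs and lncRNAs on which the results turn. They are read 5′ to 3′ on the strand of the named gene and capitals mark CG. The first set lies just before the start of the coding gene in 4 head-to-head pairs, trimmed of coding-gene exons. In the windows of Wt1, Klhl29 and Ndufaf3 every base also lies within the lncRNA on the other strand, while 34 of the 63 bases do so at Dnah8.
Dnah8 (1700097N02Rik), chr17:30845846-30845908, plus strand: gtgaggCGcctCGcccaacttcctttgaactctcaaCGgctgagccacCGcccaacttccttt
Wt1 (Wt1os), chr2:104956475-104956624, plus strand: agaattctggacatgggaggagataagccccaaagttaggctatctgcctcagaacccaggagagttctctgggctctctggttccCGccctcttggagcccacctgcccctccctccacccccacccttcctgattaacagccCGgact
Klhl29 (2810032G03Rik), chr12:5425699-5425832, minus strand: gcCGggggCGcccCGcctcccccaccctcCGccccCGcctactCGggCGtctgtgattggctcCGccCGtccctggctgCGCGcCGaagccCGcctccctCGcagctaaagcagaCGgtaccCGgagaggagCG
Ndufaf3 (4833445I07Rik), chr9:108444643-108444786, minus strand: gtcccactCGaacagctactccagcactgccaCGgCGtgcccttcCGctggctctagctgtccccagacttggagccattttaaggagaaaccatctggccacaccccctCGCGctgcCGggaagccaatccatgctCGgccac

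The second set is the 150 bases before the start of 4 lncRNAs that lie inside a coding gene or run into its end and that are described below for their changes.
Gm45463, chr8:93738097-93738246, plus strand: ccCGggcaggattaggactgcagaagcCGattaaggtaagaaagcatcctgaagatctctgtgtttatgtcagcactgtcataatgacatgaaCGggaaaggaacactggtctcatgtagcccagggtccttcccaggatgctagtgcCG
4921513I08Rik, chr7:77903861-77904010, plus strand: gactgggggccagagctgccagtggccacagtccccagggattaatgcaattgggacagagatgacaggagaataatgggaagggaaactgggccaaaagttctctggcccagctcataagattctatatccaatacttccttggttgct
Gm47547, chr14:40775439-40775588, plus strand: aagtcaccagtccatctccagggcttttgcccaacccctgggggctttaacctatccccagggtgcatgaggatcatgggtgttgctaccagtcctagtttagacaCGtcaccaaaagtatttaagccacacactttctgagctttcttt
Gm10847, chr14:75163735-75163884, plus strand: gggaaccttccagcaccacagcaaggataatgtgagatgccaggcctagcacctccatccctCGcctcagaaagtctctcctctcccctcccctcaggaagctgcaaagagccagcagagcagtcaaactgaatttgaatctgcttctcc
Counted over each sequence, CG occurred 17 times before Klhl29 and 8 times before Ndufaf3, but 2 times before Wt1, 4 times each before Dnah8 and Gm45463, 1 time each before Gm47547 and Gm10847, and not at all before 4921513I08Rik.

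Depth was alike across the libraries, at 32064384 to 37551057 counted reads as read from the step size of the CPM values. Iqch itself (chr9:63328687-63509775) stood at 217, 206, 216 and 193 CPM in wild type and at 67.7, 64.8 and 69.2 CPM in the mutants, so every mutant library was below every wild-type library. Its log2 fold change was -1.63 (standard error 0.05, limma FDR = 1.9e-10), and 1 of the 35 ways to divide the 7 libraries gave a difference this large (exact permutation test, two-sided, p = 0.0286, the smallest this design allows). Markers of testis cell types moved between the genotypes. Of 10 spermatid markers 9 fell, with a summed level of 22235 to 23505 CPM in wild type and 14263 to 16357 CPM in mutants. All 7 Sertoli cell markers rose (5 of 7 with size factors, another scaling described below), from a sum of 987 to 1072 CPM to a sum of 2079 to 2210 CPM. Of 6 Leydig cell markers 5 rose (997 to 1202 against 4214 to 4393 CPM), as did 5 of 5 macrophage markers (54.6 to 61.3 against 132 to 153 CPM). Of 8 spermatocyte markers Spo11 rose and Ccna1 fell (1159 to 1183 against 1086 to 1160 CPM), while with size factors 0 rose and 4 fell. Of 7 spermatogonial markers 4 rose (1 with size factors), and none of 3 peritubular myoid markers passed the test. Of 4 epididymal markers only Defb30 was in the table. No marker in the table was at 0 in all libraries. The part of these cell types in the changes below was not tested, and in whole testis fewer cells of a type and less RNA per cell cannot be told apart.

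More antisense lncRNAs were lower than higher in the mutants. A gene was called at an FDR below 0.01, the adjusted p-value of the limma test on log2(CPM + 0.1) over all genes. By this rule 187 of the 557 lncRNAs fell and 33 rose, or 33.6% and 5.92%, while over all 17126 genes tested 14.2% fell and 36.3% rose. The median log2 change of the members was -0.197 and that of all genes 0.121. All 557 passed the filter on low values, which their minimum ensures. With an unadjusted p below 0.05, 264 were lower and 54 higher. Because the wild-type mean chose the members, the same count was taken with a minimum on the mutant mean instead, which gave 152 lower and 63 higher of 543 lncRNAs.

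Other lncRNAs of the same minimum level had similar shares. Of 535 autosomal lncRNAs with a wild-type mean of at least 5 CPM and no coding gene on the opposite strand, 182 fell and 43 rose, or 34.0% and 8.04%, with a median log2 change of -0.197. These values stand beside those of the members as a description, since the same wild-type minimum chose both.

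The scale of the values moved the counts. The deposited CPM are relative to the total of each library, and median-of-ratios size factors, which centre the libraries on their common genes, moved the median change of all genes by -0.134. Relative to the median of all genes, the members' median was -0.318 in CPM and -0.317 with size factors. With size factors 274 of the members fell and 18 rose, and of all genes 4294 fell and 4624 rose.

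Calls were also counted by the wild-type mean, the value that chose the members, as a description. Among the 244 members from 5 to 10 CPM 51 fell and 18 rose (20.9% and 7.38%), beside 8.64% and 42.2% of all genes in that range. Among the 41 members at 50 CPM or more 30 fell and 0 rose, beside 30.5% and 18.2% of all genes there. The median log2 change of the members was -0.15 in the lowest range and -0.25 in the highest. Of the 187 that fell, 99 did so by less than 0.5 on the log2 scale and 12 by 1 or more, and 2 of the 33 that rose did so by 1 or more. Another 2, Gm13165 (-1.06, FDR = 0.031) and 4930568A12Rik (-1.86, FDR = 0.068), had a fitted change of -1 or lower without passing the test. Both were uneven, with mutants at 1.52, 1.43 and 6.30 CPM for the former and at 0.172, 6.46 and 7.06 CPM for the latter, and they are named here after their values were seen. In 290 of the 557 members no mutant value lay within the wild-type range or the reverse, beside 62.3% of all genes tested.

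**Figure D1:**
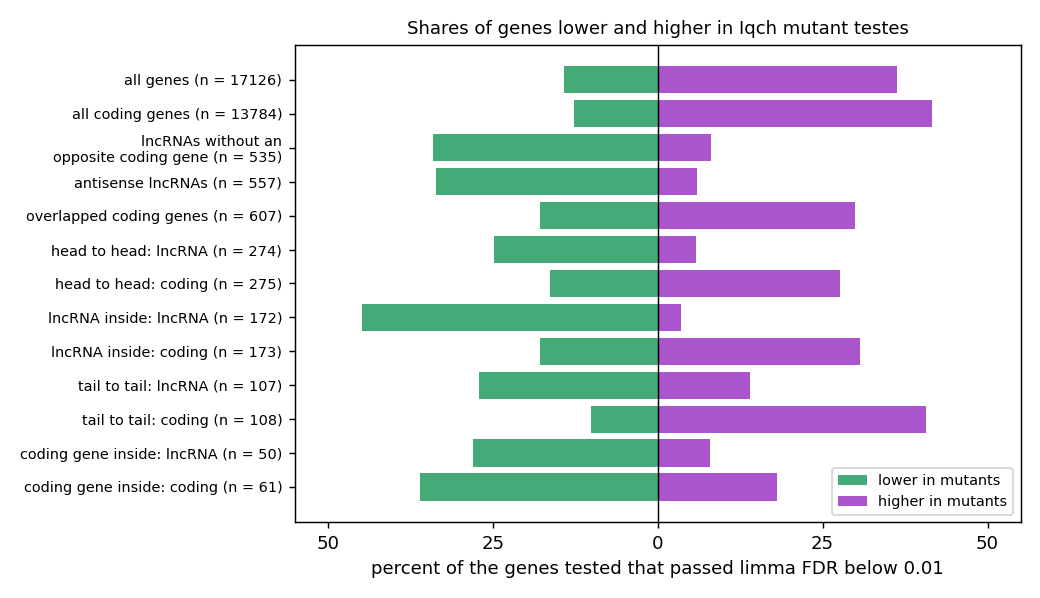
Percent of genes that passed limma FDR below 0.01 and were lower (left bars) or higher (right bars) in Iqch mutant testes, for all genes, comparison groups, the antisense lncRNAs, the coding genes they overlap and each arrangement of the pairs, with the number tested. Antisense lncRNAs (33.6% lower, 5.92% higher) stand beside other lncRNAs of like level (34.0% lower, 8.04% higher), and the lncRNAs inside a coding gene had the longest left bar, at 44.8%.

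Gm45463 fell most among the antisense lncRNAs. Its gene (chr8:93738247-93768146, plus strand) runs tail to tail with Ces1a, a carboxylesterase gene. Wild-type libraries held 13.6, 14.8, 12.4 and 13.9 CPM and mutant libraries 1.61, 1.68 and 1.35 CPM. The groups were far apart, and the log2 fold change was -3.07 (SE 0.12, FDR = 1.2e-09). Ces1a, at 5.28 ± 0.701 CPM (wild type, SD, n = 4) and 4.37 ± 0.279 CPM (mutants, SD, n = 3), did not pass the test (FDR = 0.093).

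4921513I08Rik (chr7:77904011-77905407) came next and lies inside intron 13 of Ntrk3, which encodes the neurotrophin receptor TrkC. It was counted at 21.4, 25.3, 22.5 and 20.5 CPM in wild type and at 4.999, 3.90 and 4.88 CPM in mutants. All mutant values were below all wild-type values, with a log2 fold change of -2.26 (SE 0.11, FDR = 5.2e-09). Ntrk3 changed by -0.25 (FDR = 0.033) and did not pass the test, though it did with size factors (-0.38, FDR = 0.0029). The lncRNA and Ntrk3 share no exonic base, and the difference between their changes was -2.02 (FDR = 1.1e-07).

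1700097N02Rik (chr17:30841412-30845879, minus strand) is head to head with Dnah8, which encodes a heavy chain of the outer dynein arms of the sperm tail. The lncRNA stood at 39.4, 35.8, 31.2 and 35.5 CPM in wild type and at 8.76, 9.86 and 9.95 CPM in mutants, a log2 fold change of -1.88 (SE 0.08, FDR = 3.7e-09). Dnah8 was at 1563, 1545, 1781 and 1762 CPM in wild type and at 849, 873 and 907 CPM in mutants. Both genes fell with no overlap of the groups, Dnah8 by 0.92 on the log2 scale (FDR = 3e-08) and the lncRNA by 0.96 more than Dnah8 (FDR of the difference 6e-06). The start of the main lncRNA transcript lies 30 bases before that of Dnah8, in the sequence printed above, and the overlap of the genes comes from longer alternative transcripts. Near the far end of Dnah8 a further antisense lncRNA, Gm9937 (chr17:31092835-31094258), fell from 12.3 ± 1.28 CPM (SD, n = 4) to 8.64 ± 0.847 CPM (SD, n = 3), a log2 fold change of -0.51 (FDR = 0.00086).

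The other 7 of the 10 largest decreases lay between -1.46 and -1.06. 4933438K21Rik (chr4:147106583-147198247) fell by 1.46 and runs tail to tail with Rex2, a zinc finger gene that fell by 0.67 (FDR = 0.0018, and 0.01 without mutant 4). Both lie in a cluster of near-identical zinc finger genes on chromosome 4, where reads may be shared between copies, so these values are uncertain. Gm3519, inside intron 1 of Ccdc149, fell by 1.31, and Ccdc149 was not analysed here. 4933433G19Rik fell by 1.23 at the tail of Ptdss1, a phosphatidylserine synthase gene at 61.5 ± 3.34 CPM (wild type, SD, n = 4) and 66.0 ± 0.791 CPM (mutants, SD, n = 3) that did not pass (FDR = 0.11). Gm50019 fell by 1.23 head to head with Zfand3, which fell by 0.21 (FDR = 0.002, and 0.013 without mutant 2). 4933403J19Rik fell by 1.17 inside a longer transcript of Dnmbp, a regulator of the small GTPase Cdc42 that rose by 0.49 (FDR = 0.00011). Gm44097 fell by 1.06 inside Aplf, a DNA repair factor gene (0.19, FDR = 0.077), and Gm10847 fell by 1.06 inside Lrch1.

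Gm47547 (chr14:40775589-40783571) rose most. It lies in intron 3 of Dydc2, a gene of a protein with a DPY30 domain. Wild-type libraries held 5.80, 5.16, 5.995 and 5.81 CPM and mutants 15.8, 21.3 and 19.4 CPM, so the groups were well apart, with a log2 fold change of 1.70 (SE 0.11, FDR = 5.5e-08). Dydc2 went the other way, from 36.5, 41.0, 36.9 and 37.1 CPM to 26.1, 31.9 and 29.6 CPM, a log2 fold change of -0.38 (FDR = 0.00065). The difference between the 2 changes was 2.08 (FDR = 2.6e-08), and the genes share no exonic base.

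AU020206 (chr7:75398815-75440938) rose next, at the tail of Akap13, which encodes an anchoring protein of protein kinase A. AU020206 was at 11.2, 11.7, 11.7 and 13.0 CPM in wild type and at 21.8, 27.8 and 28.5 CPM in mutants, a log2 fold change of 1.12 (SE 0.10, FDR = 7.3e-07). Akap13 was at 31.2, 25.8, 29.3 and 30.4 CPM in wild type and at 49.3, 52.0 and 52.4 CPM in mutants. Both genes were higher in every mutant, Akap13 by 0.81 (FDR = 5.6e-07), and the changes did not differ at the threshold (0.30, FDR = 0.031).

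The other 8 of the 10 largest increases lay between 0.97 and 0.69. AI480526 rose by 0.97 head to head with Setd1b, a histone methyltransferase gene that did not pass (0.11, FDR = 0.099). Snhg6, a host of small nucleolar RNAs, rose by 0.97, and both coding genes across from it rose, the kinase gene Sgk3 by 0.59 (FDR = 1.7e-05) and the meiosis gene Mcmdc2 by 0.42 (FDR = 0.00038). Brip1os rose by 0.88. Of its partners the Integrator subunit gene Ints2 rose by 0.46 (FDR = 2.3e-05), while the Mediator gene Med13 (0.18, FDR = 0.024) and the DNA helicase gene Brip1 (0.22, FDR = 0.11) did not pass. E230029C05Rik rose by 0.71 next to Eed, a Polycomb gene (0.13, FDR = 0.092). Gm15738 rose by 0.70 next to Mrtfb, a coactivator of serum response factor (0.19, FDR = 0.026). 1700095A21Rik (chr4:146567767-146676759) rose by 0.69 tail to tail with the zinc finger gene Zfp981 (0.22, FDR = 0.038). This last pair lies near the Rex2 pair on chromosome 4, where reads may be shared between copies, so its values are uncertain too.

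1700104B16Rik, inside the transcription factor gene Gtf2e2, was less even. It stood at 15.1, 14.5, 14.8 and 14.0 CPM in wild type and at 15.1, 30.3 and 33.6 CPM in mutants, so mutant 1 was barely above the highest wild-type library. The log2 fold change of 0.76 had an SE of 0.20 (FDR = 0.0052) and did not pass with size factors (FDR = 0.013). Leaving out mutant 2, mutant 4 or any of the wild-type libraries also ended the call, at an FDR of 0.011 to 0.031.

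**Figure D2:**
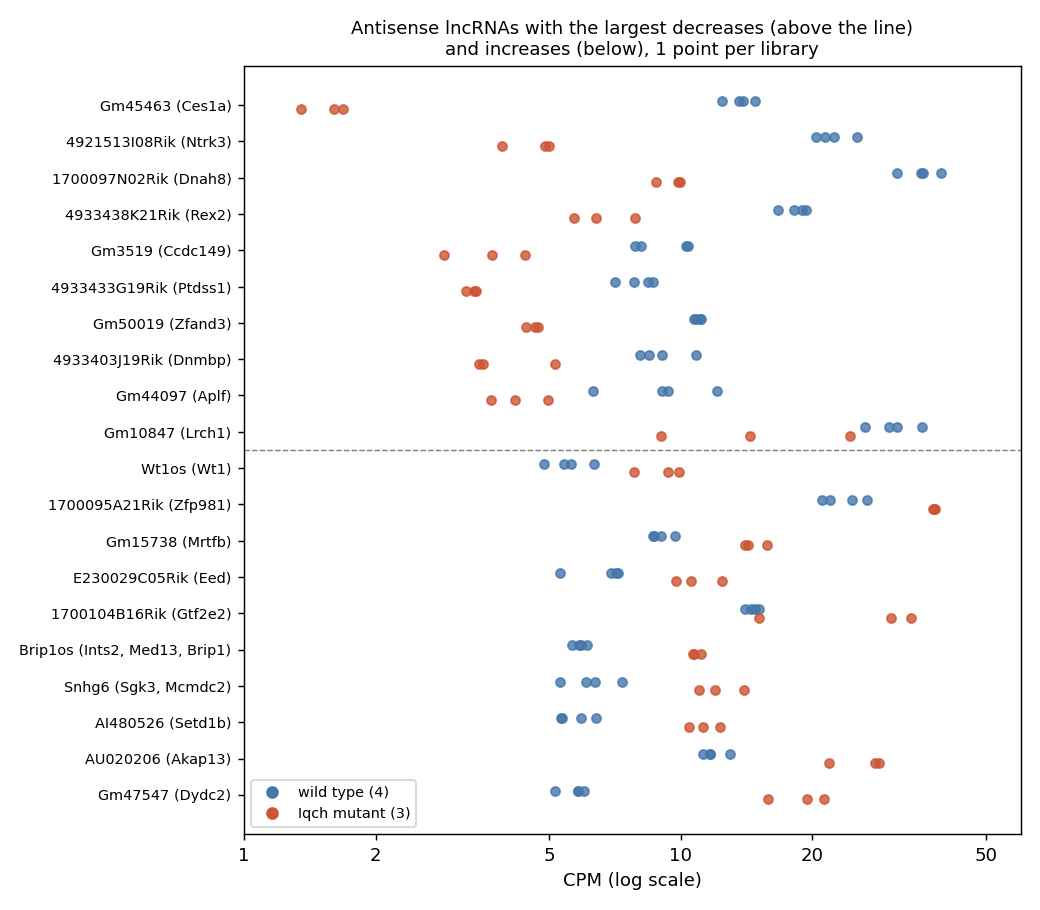
CPM on a log scale of the 10 antisense lncRNAs with the largest decreases (above the dashed line) and the 10 with the largest increases (below it), 1 point per library, with the overlapped coding genes in brackets. Gm45463 lies between 1.35 and 1.68 CPM in mutants and between 12.4 and 14.8 CPM in wild type, while 1 mutant of 1700104B16Rik lies beside the wild-type points at 15.1 CPM.

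Wt1os and Wt1 share a start region and rose together. Wt1, the transcription factor that marks Sertoli cells, was at 35.5, 35.1, 36.5 and 35.7 CPM in wild type and at 60.1, 60.4 and 56.5 CPM in mutants, a log2 fold change of 0.72 (SE 0.05, FDR = 1.1e-07). Wt1os (chr2:104906883-104956913, minus strand) was at 6.34, 5.39, 4.87 and 5.62 CPM in wild type and at 7.81, 9.89 and 9.34 CPM in mutants. All mutants were above all wild-type libraries for both genes, and Wt1os changed by 0.69 (SE 0.12, FDR = 0.00027). The difference between the changes was -0.04 (SE 0.13, FDR = 0.83). Every Sertoli cell marker of the list, Wt1 among them, rose in the same libraries, and the part of these cells in the change of Wt1os was not tested.

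The lncRNA with the highest CPM, Teshl (chr1:72975998-73100874, plus strand), contains the gene of the spermatid protein Tnp1, transition protein 1, which replaces histones before protamines do. Teshl was at 448, 420, 397 and 384 CPM in wild type and at 258, 232 and 241 CPM in mutants. Tnp1 was at 3071, 3172, 3024 and 3202 CPM in wild type and at 2116, 1917 and 1812 CPM in mutants. Both fell with no overlap of the groups, Teshl by 0.76 (FDR = 1.7e-07) and Tnp1 by 0.68 (FDR = 1.7e-07), and the changes did not differ at the threshold (-0.08, FDR = 0.31). They share 140 exonic bases, and 9 of 10 spermatid markers, Tnp1 among them, fell in the same libraries.

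The next 5 by CPM also fell. Gm2762 fell from 355 ± 9.04 to 301 ± 7.77 CPM (SD, n = 4 and 3; log2 fold change -0.24, FDR = 0.00015), and its overlapped gene was not analysed here. Wbscr25, which contains the claudin gene Cldn3, fell from 313 ± 13.3 to 218 ± 12.9 CPM (-0.53, FDR = 1.3e-06), and Cldn3 fell by 0.59 (FDR = 7.1e-05) with 906 shared exonic bases. The remaining 3 are head to head with coding genes that did not pass as lower on the CPM scale. Gm50240 fell from 159 ± 4.38 to 101 ± 2.70 CPM (-0.66, FDR = 5.3e-08) beside Btbd9, at 51.7 ± 2.57 and 48.6 ± 2.2004 CPM (FDR = 0.19, but -0.22 and FDR = 0.0044 with size factors). Tcte2 fell by 0.26 (FDR = 0.00035) beside Afdn, the gene of the junction protein afadin, which rose by 0.19 (FDR = 0.0094, but 0.06 and FDR = 0.39 with size factors, and up to 0.047 with 1 of mutants 1, 2 or 4 or wild types 2 or 4 left out). Gm10638 fell by 0.27 (FDR = 0.00031) beside the ubiquitin ligase gene Siah1a (0.14, FDR = 0.13).

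The overlapped coding genes were called higher more often than lower. Of 607 tested, 182 rose and 108 fell, with a median log2 change of 0.052, where over all 13784 protein-coding genes tested 41.5% rose and 12.7% fell. The shares for the overlapped genes were 30.0% and 17.8%. This direction depends on the scale, since with size factors 118 rose and 204 fell (19.4% and 33.6%), with a median of -0.082. Over all coding genes 31.0% rose and 23.6% fell on that scale. Relative to the median of all genes, the median of the overlapped genes was -0.069 on both scales. The overlapped genes stood at a higher level, with a median wild-type mean of 42.3 CPM beside 22.2 CPM for all coding genes. Calls over all genes differed with level, as given above, and no coding genes of matched level were counted beside the overlapped ones. Of the overlapped genes 26 rose by 1 or more on the log2 scale, or 4.28%, beside 1381 of all 13784 coding genes tested. By as much 90 of all coding genes fell, and 2 of the overlapped genes, Ndufaf3 and the protocadherin gene Pcdhgb7 (-1.44, FDR = 3e-05), which shares its last exons with other genes of its cluster and is uncertain for that reason.

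Ndufaf3 had the largest decrease of the overlapped genes, and was picked after its values were seen. Ndufaf3, which encodes an assembly factor of mitochondrial complex I, was at 780, 769, 710 and 789 CPM in wild type and at 231, 224 and 213 CPM in mutants, a log2 fold change of -1.78 (SE 0.05, FDR = 6.4e-11). Head to head with it, 4833445I07Rik was at 7.51, 6.82, 7.61 and 7.62 CPM in wild type and at 7.44, 9.48 and 7.89 CPM in mutants, with overlapping groups (0.15, FDR = 0.22). The 2 genes share 17 bases, and the difference between their changes was 1.93 (FDR = 1.2e-08).

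The overlapped genes were also grouped by the start of their symbol, which gathers genes by name and not by a known role in this tissue. Among symbols that often mark genes of sperm or cilia (such as Cfap, Dnah, Spata, Akap and Ccdc), 9 of 19 genes fell and 1, Akap13, rose, with a median of -0.21. Of all 426 coding genes with these symbols 167 fell and 50 rose, with a median of -0.14. With size factors 14 of the 19 fell and 1 rose, beside 266 lower and 36 higher of the 426. Beside Dnah8 the largest decreases were those of Spata31f1e, from 25.9 ± 4.50 to 15.7 ± 1.91 CPM (SD, n = 4 and 3; FDR = 0.00027), and Spata31f3, from 350 ± 12.5 to 276 ± 4.68 CPM (FDR = 9.6e-06). Spata31 genes are near-identical copies and their counts are uncertain. The cilium genes Cfap298 and Cfap299 each fell by 0.30 (FDR = 7.7e-05 and 0.00025). Of 20 genes of zinc fingers and other transcription factors 5 rose and 2 fell, where of all 417 with these symbols 162 rose and 30 fell. With size factors 4 of the 20 rose and 4 fell, beside 107 higher and 62 lower of the 417. Klf13 was at 1.17 (FDR = 4e-07), Sox6 at -0.19 (FDR = 0.0048) and Zbtb5 at -0.24 (FDR = 0.0067), both of which missed the threshold in at least 1 fit with a library left out (FDR up to 0.025 and 0.021). Of 17 genes of the ubiquitin system 8 rose and 1, Rnf19b, fell (-0.25, FDR = 0.00032), beside 127 higher and 38 lower of all 311. With size factors 3 of the 17 rose and 3 fell, beside 93 higher and 94 lower of the 311. Of 8 genes of RNA processing 1, Srsf5, rose by 0.47 (FDR = 8.2e-06) and 1, the helicase gene Ddx39a, fell by 0.23 (FDR = 0.0025), beside 81 higher and 9 lower of all 190. With size factors 1 of the 8 rose and 1 fell, beside 44 higher and 23 lower of the 190.

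The balance within a pair was measured in each library as log2(CPM + 0.1) of the lncRNA less that of the coding gene. This pair difference cancels the scaling of a library apart from the pseudocount. In 220 of 620 pairs the lncRNA changed below its coding gene and in 46 above it (limma FDR below 0.01 over all 3548 opposite-strand pairs of the table). This is 42.9% of the members' pairs beside 44.6% of all pairs, in either direction. In pairs of the same gene type the order of the genes was set by their identifiers, so calls over all pairs are given without direction. The median difference was -0.22. The wild-type values of the lncRNAs that chose the members also enter this difference, so its counts by direction are a description as well. All 1051 pairs of a lncRNA and a coding gene, whatever their level and with the members' pairs among them, had the lncRNA below in 308 and above in 92. With size factors the counts were again 220 and 46. Of the 2189 pairs of overlapping coding genes 49.1% had a difference at this threshold.

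The calls of both genes were then set side by side over the 620 pairs. In 38 pairs both fell, in 13 both rose, in 54 the lncRNA fell while the coding gene rose, and in 4 the lncRNA rose while the coding gene fell. In 203 pairs neither passed. The same-direction pairs were thus 51, or 8.23%, and the opposite pairs 58, or 9.35%, but with size factors they were 107 and 54. Over all 3548 opposite-strand pairs tested 16.2% were called in the same direction and 7.61% in opposite directions, and over the 2189 coding pairs 20.6% and 8.27%. With size factors the members' pairs had 17.3% in the same and 8.71% in opposite directions. On that scale all pairs had 15.8% and 9.39%, and coding pairs 17.0% and 10.7%. Across the 620 pairs the changes of the lncRNA and of the coding gene had a Pearson r of 0.0758 and a Spearman correlation of 0.101. The points come from the same 7 libraries, and some share a gene.

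**Figure D3:**
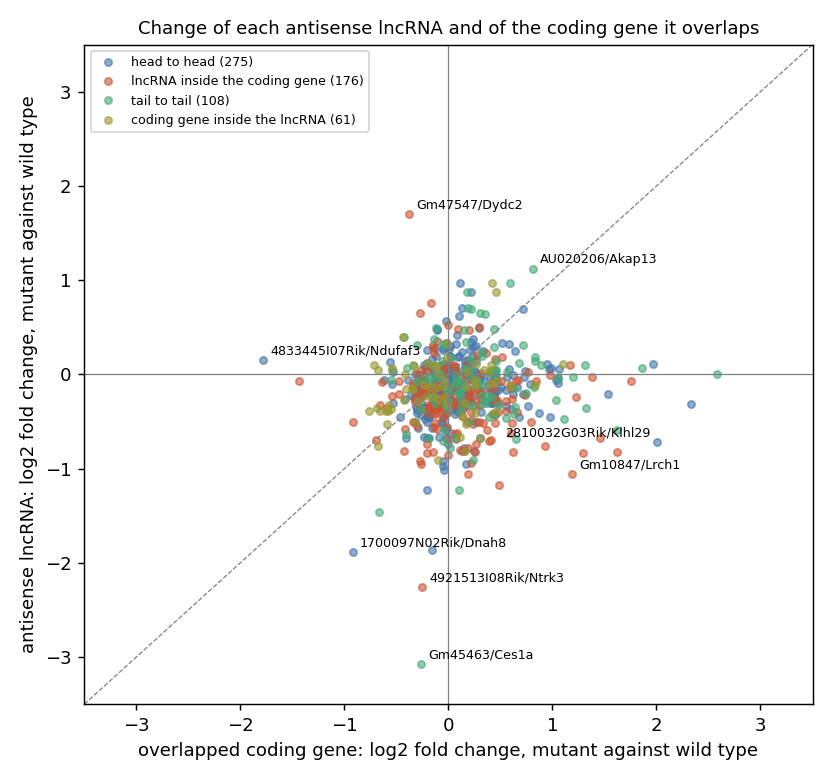
Log2 fold change (mutant against wild type) of each antisense lncRNA (vertical axis) against that of the coding gene it overlaps (horizontal axis) for 620 pairs, coloured by arrangement, with the dashed line at equal change. More points lie below 0 than above it on the vertical axis, with Gm45463, 4921513I08Rik and 1700097N02Rik far below it Klhl29 far to the right and Ndufaf3 far to the left.

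In 6 opposite pairs the difference between the changes was largest. 2810032G03Rik (chr12:5425139-5466640, plus strand) is head to head with Klhl29, a Kelch family gene, over the CG-rich sequence above. The lncRNA was at 6.94, 6.99, 7.79 and 8.68 CPM in wild type and at 4.65, 4.74 and 4.33 CPM in mutants, while Klhl29 was at 3.02, 2.88, 1.70 and 2.45 CPM in wild type and at 9.60, 9.61 and 11.4 CPM in mutants. Groups overlapped for neither gene. The lncRNA fell by 0.72 (FDR = 0.00011), Klhl29 rose by 2.01 (FDR = 8.3e-07), and the difference was -2.72 (FDR = 9.2e-07).

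In 4930579J19Rik (chr13:38638125-38645803), which lies in intron 1 of Bmp6, a growth factor gene, the values were 6.22, 7.08, 5.51 and 7.14 CPM in wild type and 3.13, 3.90 and 3.87 CPM in mutants. Bmp6 was at 2.81, 2.59, 3.16 and 2.80 CPM in wild type and at 10.5, 6.46 and 10.6 CPM in mutants. The lncRNA was lower and Bmp6 higher in every mutant (-0.82, FDR = 0.00015, and 1.62, FDR = 3.3e-06). Gm10847, in intron 1 of Lrch1, was at 35.7, 30.0, 26.4 and 31.3 CPM in wild type and at a wide 14.4, 9.01 and 24.4 CPM in mutants. Lrch1, a gene of a leucine-rich repeat protein, rose from 4.31 ± 0.333 to 9.96 ± 0.489 CPM (SD, n = 4 and 3; 1.19, FDR = 7.4e-07).

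The other 3 were of the same form, a lncRNA that fell and a coding gene that rose. Gm15756 fell by 0.59 (FDR = 2.4e-05) at the tail of Aldh1l1, a folate enzyme gene that rose from 30.1 ± 2.49 to 92.4 ± 4.16 CPM (SD, n = 4 and 3; FDR = 1.7e-09). 1700029B22Rik fell by 0.67 (FDR = 2.4e-05), and the growth factor receptor gene Fgfr2 rose by 1.46 (FDR = 3.5e-06). Their overlap rests on a long alternative Fgfr2 transcript, since the main transcripts do not overlap. 4930556I23Rik fell by 0.83 (FDR = 0.00027) inside Cracdl, which rose by 1.29 (FDR = 1.2e-07). In these libraries macrophage, Leydig and Sertoli cell markers rose and spermatid markers fell, by the sums given above, and their part in these opposite changes was not tested.

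**Figure D4:**
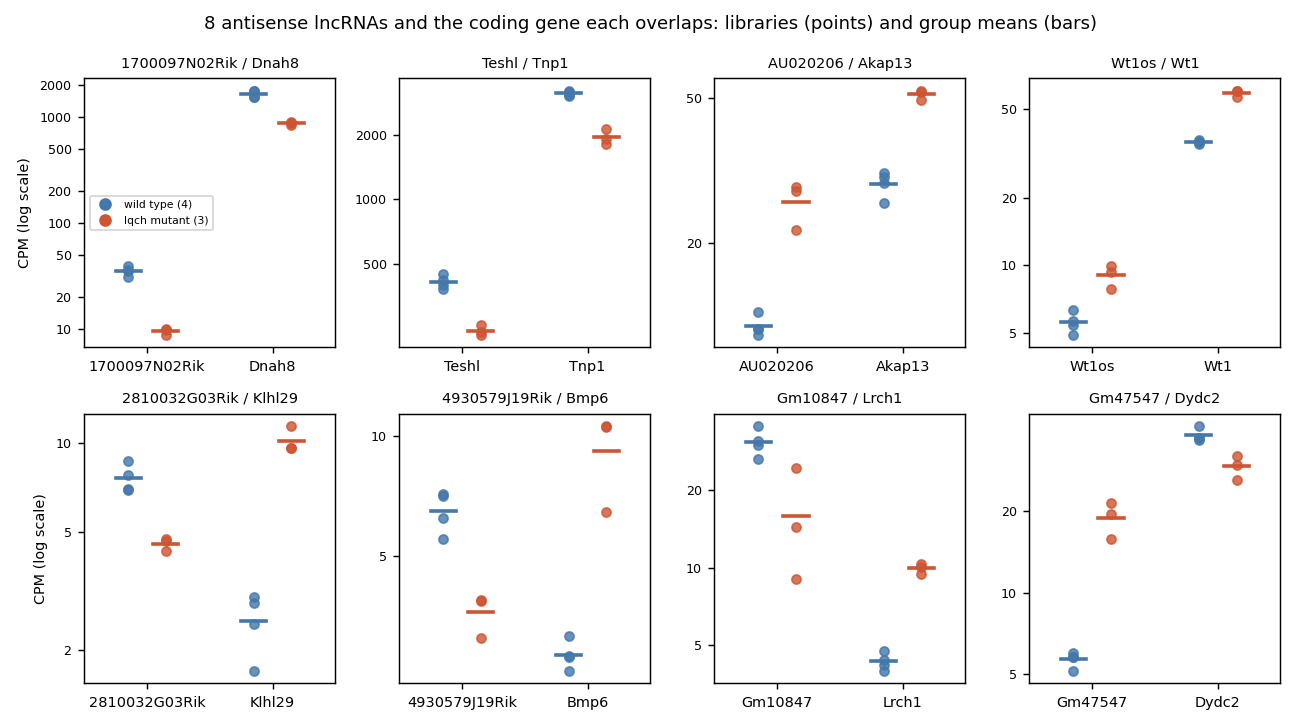
CPM on a log scale of 8 antisense lncRNAs (left of each panel) and the coding gene each overlaps (right), with 1 point per library and a bar at the group mean (4 wild-type and 3 Iqch mutant libraries). In the pairs of Dnah8 and Tnp1 both genes were lower in mutants, in those of Akap13 and Wt1 both were higher, and in the lower row the lncRNA and the coding gene moved in opposite directions.

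Pairs that moved the same way were led, by the smaller of their 2 changes, by the Dnah8, Pi16, Tnp1, Rex2 and Cldn3 pairs among those that fell and by the Akap13, Wt1, Sgk3, Ints2, Mcmdc2 and Smchd1 pairs among those that rose. Gm46603 and Pi16, a peptidase inhibitor gene, fell alike, from 8.41 ± 0.472 to 5.13 ± 0.209 CPM and from 11.4 ± 0.533 to 6.98 ± 0.204 CPM (SD, n = 4 and 3; both -0.70), and they share 427 exonic bases. 4930471L23Rik rose by 0.64 (FDR = 5.6e-05) at the tail of Smchd1, a chromatin silencing gene that rose by 0.35 (FDR = 0.00027).

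The share of lncRNAs that fell was higher inside coding genes than in other arrangements. Of 172 lncRNAs inside a coding gene 77 fell and 6 rose, or 44.8% and 3.49%, against 68 and 16 of 274 head-to-head lncRNAs, or 24.8% and 5.84%. The coding genes across from them had 31 lower and 53 higher of 173 for the former and 45 and 76 of 275 for the latter. Tail to tail, 29 of 107 lncRNAs fell and 15 rose, while 11 of 108 coding genes fell and 44 rose. Where the coding gene lay inside the lncRNA, 14 of 50 lncRNAs fell and 4 rose, and 22 of 61 coding genes fell and 11 rose. No test of the difference between arrangements was made.

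Pairs were also divided by whether exons overlapped. In 498 pairs with exon overlap 126 of 423 lncRNAs fell and 27 rose, and the changes had a Pearson r of 0.106. In the 122 pairs with none, 48 of 113 lncRNAs fell and 8 rose, with an r of -0.00136. Across the 77 pairs with the lncRNA inside the coding gene and no shared exonic base, 33 of 73 lncRNAs fell and 3 rose, 15 coding genes fell and 26 rose, and r was -0.117. Across the 61 pairs with the coding gene inside the lncRNA r was 0.244, and across the 275 head-to-head pairs 0.122. In each set the points come from the same 7 libraries.

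Of the lncRNAs named after the gene they overlap (the gene's symbol with os or as), 57 were members. Of these 23 fell and 4 rose, with a median of -0.26, beside 33.6% lower and 5.92% higher of all members. Of 49 partners tested 10 fell and 13 rose, where of all coding genes tested 12.7% fell and 41.5% rose. The lncRNAs that rose were Brip1os, Wt1os, Lyzl4os and Rab10os, the last of which did not pass with size factors (FDR = 0.11) or without 1 of the mutants or wild types 2 or 3 (FDR up to 0.031). Lyzl4os rose from 19.8 ± 2.28 to 31.1 ± 2.32 CPM (SD, n = 4 and 3; 0.65, FDR = 3.9e-05) while Lyzl4, a sperm lysozyme-like gene, fell by 0.27 (FDR = 0.0027, and 0.01 and 0.016 without wild type 2 and mutant 2). In the opposite sense, Itpr3os was at 43.7, 46.9, 38.9 and 45.8 CPM in wild type and at 24.1, 25.7 and 24.1 CPM in mutants (-0.82, FDR = 5.4e-07), while the calcium channel gene Itpr3 rose by 0.62 (FDR = 0.0002). Pip5k1bos fell by 0.76 (FDR = 0.00013) and the lipid kinase gene Pip5k1b rose by 0.93 (FDR = 1.5e-06). Dgkeos fell (-0.43, FDR = 0.00036) and Dgke rose (0.45, FDR = 0.00018). Other such pairs moved the same way. Grip1os1 (-0.41, FDR = 0.00035) and Grip1 (-0.20, FDR = 0.0013) both fell. So did Lef1os1 (-0.47, FDR = 0.00068) and Lef1 (-0.22, FDR = 0.0087, but up to 0.046 with a library left out). Rab10os, named above, rose with Rab10 (0.44, FDR = 7.5e-06).

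In the pairs of Gad1, Sgms1 and Zbtb11 only 1 of the genes passed on the CPM scale. Gad1os, at 9.21, 9.44, 9.22 and 8.04 CPM in wild type and 7.64, 7.02 and 7.003 CPM in mutants, did not (-0.31, FDR = 0.012, but -0.44 and FDR = 0.0013 with size factors), while the glutamate decarboxylase gene Gad1 rose from 1.02 ± 0.257 to 5.69 ± 2.21 CPM (SD, n = 4 and 3; 2.33, FDR = 3.8e-06). Sgms1os1 did not pass (0.13, FDR = 0.14), while the sphingomyelin synthase gene Sgms1 fell from 323 ± 5.94 to 220 ± 7.32 CPM (-0.56, FDR = 1.1e-07). Zbtb11os1 fell by 0.74 (FDR = 1.6e-05) head to head with Zbtb11, whose change was near 0 (FDR = 0.97). Both genes passed in a further opposite pair, where Ube4bos3 fell by 0.94 (FDR = 0.0011) inside the ubiquitin ligase gene Ube4b, which rose by 0.22 (FDR = 0.0053, but FDR = 0.19 with size factors and up to 0.036 without mutant 2 or 4 or wild type 1, 2 or 3).

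No coding gene had more than 2 members across from it, and 15 had 2. In Galnt10, a gene of mucin-type glycosylation that rose from 110 ± 4.89 to 133 ± 5.26 CPM (SD, n = 4 and 3; 0.27, FDR = 0.0003, but 0.14 and FDR = 0.027 with size factors), both 4933424L21Rik (-0.50, FDR = 9.2e-05) and 4933426K07Rik (-0.74, FDR = 0.00021) fell. In Npas3, a neuronal transcription factor gene that did not pass (0.24, FDR = 0.19), Gm35818 fell by 0.91 (FDR = 3.2e-05) and 1700030L22Rik by 0.53 (FDR = 0.0005). The members over Uck2 and Fam219a did not pass on the CPM scale, nor did these genes. With size factors Uck2 (-0.18, FDR = 0.0043), Fam219a (-0.20, FDR = 0.0043) and Gm37982 over Uck2 (-0.37, FDR = 0.0013) passed. At the other end, 104 members overlapped more than 1 coding gene, and the most was 25.

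Around the minimum, the members just inside were Nrg3os at 5.003 CPM, 1700126G02Rik at 5.01, Gm14023 at 5.02 and C230013L11Rik at 5.03 CPM in wild type, with mutant means of 4.26, 7.10, 5.17 and 4.99 CPM. Just outside were 1700101I19Rik at 4.99, Gm42596 at 4.98, Gm41668 at 4.96 and Gm44071 at 4.95 CPM, with mutant means of 3.35, 4.07, 2.46 and 3.67 CPM. The first of these was at 0, 5.68 and 4.36 CPM in the mutants.

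Genes that act on antisense or paired RNA were followed as lists, to be read beside the 36.3% of all genes that rose and the 14.2% that fell. Of 22 genes tested of RNA turnover, among them the exosome, which degrades many antisense RNAs, 7 rose and 3 fell. These shares are near those of all genes on the CPM scale. With size factors 2 of the 22 rose and 7 fell, while of all genes 27.0% rose and 25.1% fell. The exosome nuclease gene Dis3 fell from 105 to 79.1 CPM (-0.40, FDR = 2.9e-05), while the helicase gene Mtrex was at 120 and 143 CPM (0.25, FDR = 0.00079, but FDR = 0.058 with size factors) and Exosc8 rose by 0.60 (FDR = 7.7e-05). Of 17 genes of double-stranded RNA recognition and editing 12 rose and 1 fell (8 and 1 with size factors). Ifih1, the sensor MDA5, rose from 1.79 to 4.47 CPM (1.27, FDR = 7e-06), Mavs, its adaptor, by 1.06 (FDR = 6.3e-07), and Adar, the RNA editing enzyme, by 0.69 (FDR = 5.3e-06). The 1 that fell was Adad1, a germ cell relative of Adar (-0.26, FDR = 0.00077). Macrophage markers rose in the same libraries, and their part in the rise of the sensors was not tested.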

How the data were processed

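RNA-seq libraries of whole testis (paired-end, TruSeq RNA kit) were compared between 4 wild-type and 3 Iqch mutant mice. Per the labels and the study's methods, the authors trimmed reads with Trimmomatic, aligned them to GRCm39 with Subread, counted genes with featureCounts, and used DESeq2 and edgeR. The strand setting and annotation release are not given in the sources used here. The deposited values are CPM, counts scaled by the authors to the total of each library. In every library 100% of values were whole multiples of the CPM of 1 read (tolerance 1e-06), which gives 32064384 to 37551057 reads per library. The columns were checked as CPM and no count test was run. P-values measure the spread between mice.

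Gene types, strands and overlaps came from GENCODE release M39 (GRCm39), which held 17045 of the 17127 genes. Sequences came from GRCm39 at the canonical transcript starts of that release. Pairs were classed by gene bodies, and exon overlap was counted over all transcripts. The members and lists were chosen with earlier results of these data known.

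Linear models with a trended variance (limma 3.58.1, R 4.3.3) were fitted to log2(CPM + 0.1). A gene entered where 2 or more libraries of a group reached 2.2 CPM, with Benjamini-Hochberg adjustment over all genes and calls at an FDR below 0.01. Fold changes are on the log2(CPM + 0.1) scale and understate changes of low genes. The difference within a pair was fitted likewise over all 3548 opposite-strand pairs of the table. On a simulated table with known changes, 200 of 200 changed genes were called with 1 unchanged gene among 16533 tested, and 72 of 72 changed pairs of 3395. Its changes were larger than most lncRNA changes called here, its other genes stayed unchanged, and its spread was fixed. It therefore does not show how smaller changes are called. Genes were named by rule: the 10 lncRNAs with the largest change in each direction among those called with groups that did not overlap, the 6 opposite pairs and the 6 same-direction pairs in each direction with the largest change, the 6 lncRNAs with the highest CPM, the 4 on either side of the minimum, lncRNAs named after their overlapped gene, the 4 coding genes with most members, and the listed genes. Alternatives changed the pseudocount, the minimum, the scaling, the replicate block, the libraries, and the member and overlap rules. Python 3.11.15 was used for annotation and counts. Results that need certain items withheld from this text are not reported here.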

Additional observations from a re-analysis of the deposited data

Results flagged for a closer look

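In 12 of 187 groups of 4 wild-type libraries, 1 library lay far from the other 3 relative to the range of the group. Chance gives about 1 in 20 such groups. The gap is given as a share of the range and was above the critical value of Dixon's test at the 95% level. Among the lncRNAs, E230029C05Rik had a gap of 0.849, with wild type 1 at 5.30 CPM and the others at 6.90 to 7.19 CPM. For 4930471L23Rik the gap was 0.859 (wild type 4 at 8.73 CPM, the others at 7.27 to 7.48 CPM), and for Gad1os it was 0.84 (wild type 4 at 8.04 CPM, the others at 9.21 to 9.44 CPM). Ptprjos1 had a gap of 0.954 (wild type 3 at 18.2 CPM, the others near 18.9 CPM), Ccdc34os of 0.831 (wild type 4 at 11.4 CPM, the others at 12.8 to 13.1 CPM) and 4833445I07Rik of 0.866 (wild type 2 at 6.82 CPM, the others at 7.51 to 7.62 CPM).

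Among the overlapped genes, the gap was 0.837 for Rex2 (wild type 4 at 4.39 CPM, the others at 3.47 to 3.62 CPM), 0.843 for Akna (wild type 4 at 115 CPM, the others at 96.0 to 98.9 CPM), 0.835 for Uck2 (wild type 4 at 96.8 CPM, the others at 94.9 to 95.2 CPM) and 0.841 for Il1a (wild type 4 at 3.97 CPM, the others at 2.54 to 2.77 CPM). Wild type 2 was apart for Rab10, with a gap of 0.835 (50.2 CPM against 52.7 to 53.2 CPM), and for Dydc2, with a gap of 0.88 (41.0 CPM against 36.5 to 37.1 CPM).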

How the results depend on the processing

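The counts by direction moved with the scaling and with the rule for members. With size factors 18 lncRNAs were higher, the lncRNA median was -0.33, 204 overlapped coding genes were lower and 118 higher, their median turned to -0.082, and 107 pairs changed in the same direction. With members chosen by the mean over all libraries 50 lncRNAs were higher, and by the mutant mean 63. With a wild-type minimum of 2 CPM, 78 lncRNAs were higher, 166 coding genes lower and 323 higher, 84 pairs had the lncRNA above and 92 changed in the same direction. With a minimum of 10 CPM, 15 lncRNAs were higher, 54 coding genes lower and 107 higher, 144 pairs had the lncRNA below and 13 above, and 38 were opposite. With no shared exonic base, 55 lncRNAs were lower and 10 higher, where the 113 lncRNAs of the tested pairs above had 48 and 8. By that rule 24 coding genes were lower and 35 higher, with 53 pairs below and 6 above, 12 in the same direction and 15 opposite. The member rules change how many genes are counted, and the cause of the other shifts was not tested. With each library left out in turn, 155 to 180 lncRNAs were lower and 23 to 30 higher, 89 to 116 coding genes lower and 151 to 178 higher, and 184 to 217 pairs below and 31 to 42 above, with 36 to 50 in the same direction and 40 to 55 opposite. Other pseudocounts and minimums left these counts within 1.5 times. With overlap of canonical transcripts, chosen after seeing the data, 155 lncRNAs were lower and 28 higher.

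With the replicate number as a block (3 numbers found in both groups), 166 lncRNAs were lower and 25 higher, 98 coding genes lower and 162 higher, and 217 pairs below and 43 above. Deviations of same-numbered libraries had correlations of 0.0261, 0.0094 and -0.0977, so the numbers did not pair the libraries. Of 186 named genes, not counting genes named only in the marker and RNA lists, 11 lost and 20 gained a call with size factors. Listed genes moved as well. Sox9 (FDR = 0.022), Spo11 (FDR = 0.077) and Mtrex (FDR = 0.058) were among those that lost a call, and Piwil1 (FDR = 0.0051) among those that gained it. Values are limited at low CPM, where 1 read is 0.0266 to 0.0312 CPM.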
